A study of Mus musculus with 12 samples.

Results

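Macrophages that meet bacterial lipopolysaccharide (LPS) rewire a small set of enzymes that make antimicrobial metabolites and radicals. Acod1 turns a citric acid cycle intermediate into itaconate. Nos2, the inducible nitric oxide synthase, makes nitric oxide from arginine with the cofactor tetrahydrobiopterin, whose synthesis starts with Gch1. Slc7a2 carries arginine into the cell, and the arginases Arg1 and Arg2 split the same arginine into ornithine and urea, so they draw on the substrate of Nos2. Cybb is the membrane-bound catalytic subunit of the phagocyte NADPH oxidase, which makes superoxide, and Sod2 removes superoxide in mitochondria.

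These 8 genes were followed in mouse spleen. They were taken by gene symbol from the platform's probe table, which held 14 probe sets for them among 22626 non-control probe sets, and no probe set that named a member beside another gene. Each gene stands on 1 probe set, the brightest on average over the arrays, which left 12393 genes in all. All 8 members were measured, and no filter on dim signals was applied. Spleens came from 12 mice in 4 groups of 3, with 1 Affymetrix MOE430A 2.0 array per mouse and 5 µg of total RNA per array. The groups were mice labelled DUSP1+/+ (wild-type here) and mice labelled DUSP1-/- (knockout here), each either untreated or taken 6 h after 10 µg of LPS per g of body weight was injected into the peritoneum. The LPS was from E. coli. Strain, age, sex and the structure of the Dusp1 allele are not given in the sources used here. The series asks how Dusp1, a phosphatase that switches off MAP kinases, controls the LPS response.

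The values are intensities on a linear scale, and all differences below are on the log2 scale. Intensities ran from 6 to 15228, and 30.8% of them lay under 20, which is treated here as near the floor of the arrays. The Dusp1 probe set read no lower under the knockout label (677 to 1528 in controls and 2948 to 4996 after LPS, against 479 to 1354 and 2116 to 2248 in wild-type). The position of that probe set against the changed stretch of the gene is not given, so it checks nothing, and directions between genotypes stand on the labels alone. B cell Cd79a (730 to 4499) and T cell Cd3e (142 to 591) were read in all arrays, which goes with lymphoid tissue but does not single out spleen. The spleen transcription factor gene Tlx1 read 64 to 181 in controls and 26 to 36 after LPS, the latter near the floor. Several arrays also held transcripts of other tissues. The pancreas gene Prss2 read 8116, 3981 and 503 in wild-type control 1 and knockout controls 1 and 3, against 25 to 53 elsewhere. Wild-type controls 2 and 3 had low Xist (35 and 47, against 1101 to 3949), the pattern of male tissue, so sex is partly mixed with LPS and genotype. These are whole spleens, in which fewer cells of a type and less RNA per cell cannot be told apart.

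After LPS the itaconate, arginine uptake and superoxide genes rose in both genotypes, while Nos2 and Arg1 did not pass the test in either. In wild-type spleen 4 of the 8 genes rose and 0 fell, namely Acod1, Sod2, Slc7a2 and Cybb. Of all 12393 genes, 3.93% rose in that comparison and 8.09% changed in either direction (6.59% of probe sets). In knockout spleen the same 4 genes and Arg2 rose, 5 of 8 with 0 falls, against 5.54% of all genes higher and 15.2% changed in either direction. The median log2 difference of the 8 genes was 1.44 in wild-type and 1.97 in knockout spleen, beside -0.03 and -0.06 for all genes. Without the 3 arrays with pancreas transcripts 2 of 8 passed in wild-type spleen, and without the 2 arrays of male pattern 5 of 8 passed in knockout spleen. The first setting leaves 1 knockout control (replicate 2, the array highest in liver transcripts) and the second 1 wild-type control (replicate 1, the array highest in Prss2). The second takes no array out of the knockout comparison, so its count there does not bear on the male pattern. Against that 1 knockout control the differences were 3.39 for Gch1, 1.67 for Slc7a2 and 1.52 for Arg2. With all arrays they were 1.90, 2.11 and 1.77. Against the 1 wild-type control of the second setting the wild-type difference of Slc7a2 was 1.99, beside 1.88 with all arrays, and its call ended. In these fits the lone control is assumed to vary like the arrays of the other groups. The intensities of 5 of the 8 did not overlap between control and LPS arrays in wild-type spleen, all of them higher (10.2% of all genes), and the same count applied in knockout spleen (11.3%). Gch1 was among the 5 in wild-type and Arg2 among the 5 in knockout spleen, and for neither did the difference between the responses pass its own test. A gene passed when limma's adjusted p over all probe sets was under 0.05, and a value after ± is limma's standard error for 3 against 3 mice.

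**Figure D1:**
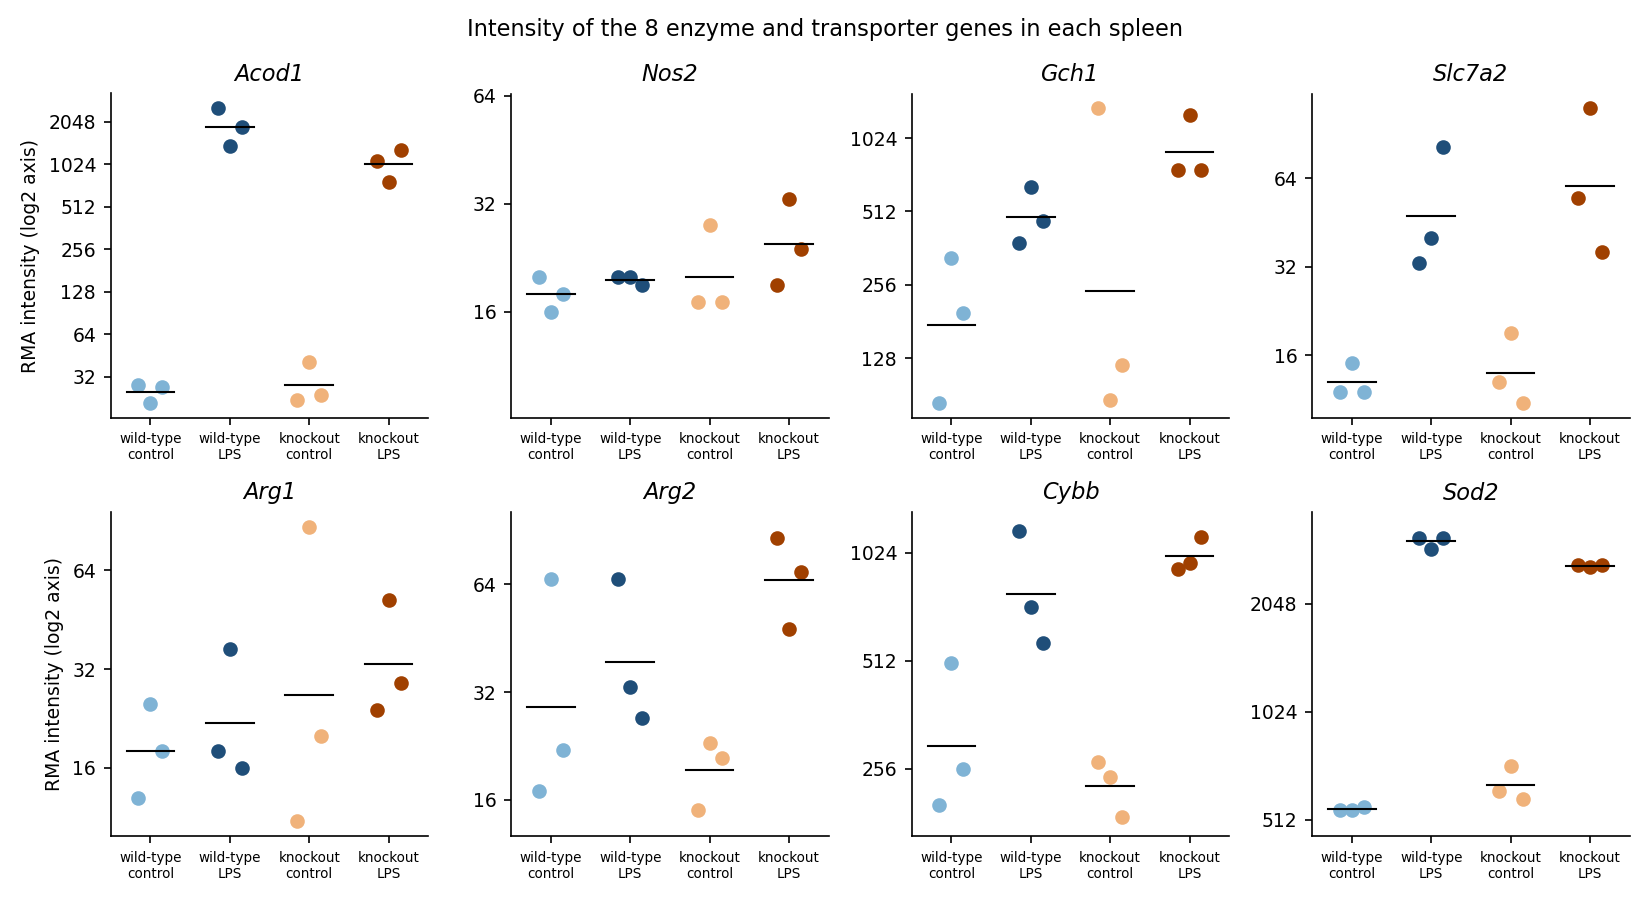
RMA intensity of each of the 8 genes (log2 axis) in the 12 spleens, 3 points per group, with the geometric mean of a group as a bar. Acod1 and Sod2 part LPS from control arrays without overlap in both genotypes, while Nos2 stays between 16 and 33 throughout.

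Acod1 and Sod2 gave the clearest responses. Acod1 (probe set 1427381_at) read 28, 21 and 27 in untreated wild-type mice and 2544, 1383 and 1871 after LPS. In knockout mice the values were 22, 41 and 24 in controls and 1085, 766 and 1294 after LPS. Every LPS array lay far above every control, with the wild-type LPS arrays highest and the controls of both genotypes overlapping. The rise was 74.6-fold in wild-type (6.22 ± 0.30, adjusted p = 6.32e-06, geometric mean from 25.1 to 1870). In knockout spleen it was 36.8-fold (5.20 ± 0.30, adjusted p = 7.6e-06, from 27.9 to 1020). It was the fourth largest difference of all genes in wild-type, and it starts near the floor, so its size depends on that floor: with intensities under 32 set to 32 it was 5.87 and 4.88, and on the log2(intensity + 16) scale 5.52 and 4.56, called in both genotypes each time.

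Sod2, the mitochondrial superoxide dismutase (probe set 1448610_a_at), was already bright in controls and varied little. It read 543, 543 and 555 in untreated wild-type mice and 3126, 2915 and 3117 after LPS. The knockout values were 616, 722 and 585 in controls and 2622, 2583 and 2621 after LPS. In this probe set groups were so tight that the order wild-type control, knockout control, knockout LPS, wild-type LPS held with no overlap between neighbours. Neighbours of different genotype did not pass the test. Sod2 rose 5.58-fold in wild-type (2.48 ± 0.13, adjusted p = 6.52e-06). The knockout rise was 4.09-fold (2.03 ± 0.13, adjusted p = 1.59e-05). A second probe set, 1417193_at, gave 2.71 ± 0.16 (adjusted p = 1.1e-05) and 2.10 ± 0.16 (adjusted p = 3.56e-05). The remaining one, 1417194_at, was dim (16 to 48), and its differences of 0.90 ± 0.26 and 0.57 ± 0.26 did not pass (adjusted p = 0.0648 and 0.197). In both of these probe sets the controls of the genotypes overlapped (397 to 502 in wild-type and 472 to 654 in knockout for 1417193_at).

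The sequences before the start sites of the members that rose in both genotypes were read where the promoter table holds them, to show what these genes carry beside the rises. They are credited to RefSeq on GRCm38.p6, for Acod1 chr14:103046762-103047011 on the + strand, for Sod2 chr17:13007589-13007838 on the + strand and for Cybb chrX:9469325-9469574 on the - strand. Each is the 250 bases before the start, 5′ to 3′, in which capitals mark matches to any of 6 motifs searched on both strands.
Acod1: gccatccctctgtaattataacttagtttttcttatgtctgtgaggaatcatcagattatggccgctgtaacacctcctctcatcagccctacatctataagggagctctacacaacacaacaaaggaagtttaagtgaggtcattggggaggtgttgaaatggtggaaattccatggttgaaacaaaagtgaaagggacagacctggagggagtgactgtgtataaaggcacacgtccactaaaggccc
Sod2: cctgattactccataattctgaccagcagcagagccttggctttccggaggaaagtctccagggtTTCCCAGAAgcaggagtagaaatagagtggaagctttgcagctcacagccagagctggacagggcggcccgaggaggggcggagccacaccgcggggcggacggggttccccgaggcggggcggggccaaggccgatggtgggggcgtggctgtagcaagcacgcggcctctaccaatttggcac
Cybb: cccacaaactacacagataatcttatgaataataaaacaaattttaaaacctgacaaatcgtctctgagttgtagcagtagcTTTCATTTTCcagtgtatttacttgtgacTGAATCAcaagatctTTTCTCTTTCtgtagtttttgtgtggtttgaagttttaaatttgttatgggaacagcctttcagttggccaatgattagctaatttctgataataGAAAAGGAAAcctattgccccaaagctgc

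The promoter of Cybb held 3 matches to the ISRE motif (GAAA, any NN, then GAAA, known for interferon response), a pair of them in reverse, and 1 match to the AP-1 motif TGANTCA. These motifs occur in 2.98% and 6.75% of the 32851 promoter windows of the table. The Sod2 window held 1 match to the STAT-type motif TTCNNNGAA (7.02% of windows). The NF-kB motif (GGG, any NNN, then TTCC, in 4.65% of windows), the CRE motif TGACGTCA (1.55%) and the C/EBP motif TTGCNNAA (9.56%) had no match in the windows of Acod1, Sod2, Cybb or Gch1, and no match overlapped another. No motif matched in the Acod1 or Gch1 window. A match is a run of letters, and a missing match says only that these letters are not in this window. Nos2, Slc7a2, Arg1 and Arg2 had no entry in the table.

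Nos2 and its supporting genes gave a mixed picture. Nos2 (probe set 1420393_at) read 20, 16 and 18 in untreated wild-type mice and 20, 20 and 19 after LPS. In knockout mice it read 17, 28 and 17 in controls and 19, 33 and 24 after LPS. All groups overlapped, at or near the floor of the arrays. The difference with LPS was 0.13 ± 0.24 in wild-type (95% interval -0.40 to 0.67, adjusted p = 0.865), and the knockout difference was 0.30 ± 0.24 (-0.24 to 0.84, adjusted p = 0.523). At this signal the arrays do not show whether a lower level of Nos2 transcript was present or changed.

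Slc7a2, the inducible transporter that brings in arginine (probe set 1422648_at), rose in both genotypes from near the floor. It read 12, 15 and 12 in untreated wild-type mice and 33, 40 and 82 after LPS. The knockout values were 13, 19 and 11 in controls and 55, 111 and 36 after LPS. LPS and control arrays did not overlap in either genotype, while the genotypes overlapped at each treatment. The wild-type rise was 3.69-fold (1.88 ± 0.43, adjusted p = 0.0254). The knockout rise was 4.32-fold (2.11 ± 0.43, adjusted p = 0.00915). A second probe set, 1426008_a_at, gave 1.79 ± 0.42 (adjusted p = 0.0298) and 2.15 ± 0.42 (adjusted p = 0.00782), and the remaining one, 1450703_at, stayed between 7 and 11. Leaving out any 1 of wild-type controls 1, 2 and 3 or wild-type LPS 2 and 3 ended the wild-type call (adjusted p up to 0.114), and leaving out the 3 arrays with pancreas transcripts ended both (1.83 and 1.67, adjusted p = 0.0891 and 0.146, the latter against 1 remaining control). Leaving out the 2 arrays of male pattern also ended the wild-type call (1.99 against 1 remaining control). Setting intensities under 32 to 32 cut the differences to 0.57 and 0.92 and ended both calls (adjusted p = 0.726 and 0.287).

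Gch1, the first enzyme of tetrahydrobiopterin synthesis (probe set 1420499_at), was higher after LPS in wild-type mice without overlap, but did not pass the test. It read 84, 331 and 196 in untreated wild-type mice and 379, 646 and 469 after LPS. In knockout mice it read 1358, 86 and 120 in controls and 761, 1273 and 755 after LPS. Knockout control 1 was above every other array, and without it the knockout controls would lie below all LPS arrays. The differences of 1.47 ± 0.88 in wild-type and 1.90 ± 0.88 in knockout spleen had adjusted p of 0.435 and 0.208. Without knockout control 1 the knockout difference was 3.15 ± 0.50 and passed (adjusted p = 0.00328).

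Red cell precursor and neutrophil transcripts moved with Gch1, with r = 0.963 and 0.810 over the 12 arrays after the group means were taken off. The neutrophil list (12 of 15 genes measured) had its highest sums in wild-type control 2 (15660) and knockout control 1 (13120), against 4105 to 8672 in the other arrays, and its part in the result was not tested. The red cell list (11 of 14 genes measured) had its highest summed intensity in knockout control 1, 25350, against 1711 and 1162 in the other knockout controls. In wild-type controls the sums were 2472, 12560 and 7118, while LPS arrays gave 2615 to 5356 (wild-type) and 4563 to 5866 (knockout). Klf1, a transcription factor of red cell precursors, read 3923 in knockout control 1 and 1389 in wild-type control 2, which were also the highest Gch1 values of their groups, against 29 to 434 in the other arrays. With the mean of this list as a covariate, a setting chosen after seeing the data, Gch1 rose by 2.25 ± 0.29 and 2.21 ± 0.28 in the respective genotypes (adjusted p = 0.00195 and 0.000826). Without the 2 arrays highest in these transcripts, also chosen after seeing the data, it rose by 1.92 ± 0.41 (adjusted p = 0.0322) and 3.15 ± 0.41 (adjusted p = 0.0023). The second Gch1 probe set, 1429692_s_at, disagreed: it was 51 to 92 in wild-type controls, 55 to 79 after LPS, 221, 91 and 61 in knockout controls and 91 to 97 after LPS, with differences of 0.14 ± 0.41 and -0.17 ± 0.41.

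**Figure D2:**
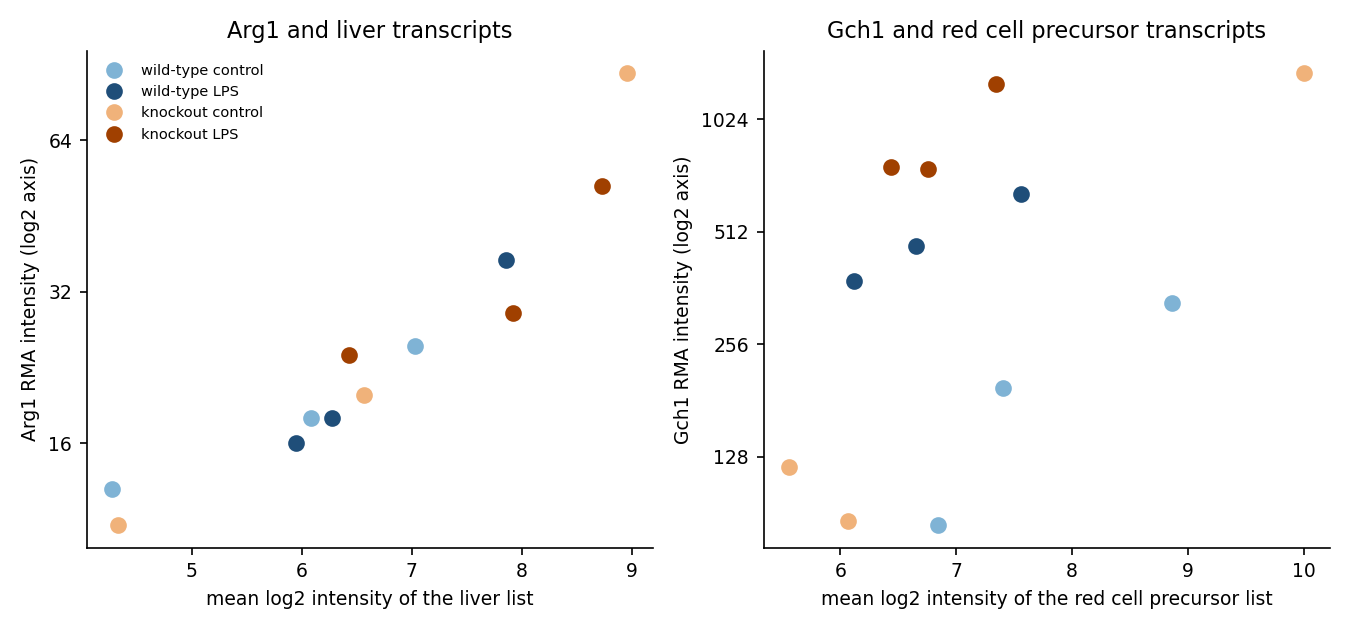
Left, Arg1 intensity (log2 axis) against the mean log2 intensity of the liver marker list in the 12 spleens. Right, Gch1 intensity against that of the red cell precursor list. Knockout control 2 is highest on both axes at left (87 for Arg1) and knockout control 1 at right (1358 for Gch1).

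The arginases differed from each other. Arg1 (probe set 1419549_at), known as the urea cycle enzyme of liver and as an enzyme of alternatively activated macrophages, read 13, 25 and 18 in untreated wild-type mice and 18, 37 and 16 after LPS. The knockout values were 11, 87 and 20 in controls and 24, 52 and 29 after LPS. All groups overlapped, and knockout control 2 was the highest of the 12. The wild-type LPS difference was 0.29 ± 0.66 (95% interval -1.16 to 1.74, adjusted p = 0.900). The knockout one was 0.31 ± 0.66 (-1.14 to 1.76, adjusted p = 0.843).

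Liver transcripts moved with Arg1. The 3 genes most like it over the 12 arrays, among 8099 genes above the 40th percentile of mean level, were Ahsg, Ttr and Ambp (Pearson r = 0.969, 0.963 and 0.958), all known for secretion by liver. Albumin (Alb) read 26, 1975 and 383 in wild-type controls, 609, 1130 and 249 in wild-type LPS arrays and 29, 5986 and 825 in knockout controls, the order of Arg1 in each of those groups. In knockout LPS arrays Alb read 424, 1655 and 2227, where the highest Arg1 was in the array with the middle value. The liver list (15 of 16 genes measured) had summed intensities of 352 to 4275 in wild-type controls, 1314 to 6332 in wild-type LPS, 363 to 17620 in knockout control and 1959 to 11500 in knockout LPS arrays. Among its genes the urea cycle gene Otc stayed near the floor in most arrays, at 9 to 25. With the mean of the list as a covariate the LPS differences of Arg1 were -0.21 ± 0.26 and -0.29 ± 0.26, with a standard error less than that of the fit without it.

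Arg2, the mitochondrial arginase (probe set 1418847_at), read 17, 66 and 22 in untreated wild-type mice and 66, 33 and 27 after LPS. In knockout mice it read 15, 23 and 21 in controls and 86, 48 and 69 after LPS. The wild-type groups overlapped through wild-type control 2 alone, and the other wild-type controls (17 and 22) lay below all wild-type LPS arrays. Every knockout LPS array lay above every knockout control. Arg2 rose by 1.77 ± 0.49 in knockout spleen (3.4-fold, adjusted p = 0.0386), and its wild-type difference was 0.42 ± 0.49 (adjusted p = 0.759). The difference between those responses, 1.35 ± 0.69, did not pass (adjusted p = 0.971). With single arrays left out, the wild-type difference ran from 0.03 to 1.01 and the difference between the responses from 0.76 to 1.74. Leaving out any 1 of knockout controls 1, 2 and 3, knockout LPS 1 and 3 or wild-type LPS 2 ended the knockout call (adjusted p up to 0.145), as did leaving out the 3 arrays with pancreas transcripts (1.52 against 1 remaining control, adjusted p = 0.195) and using the second probe set, 1438841_s_at (0.74 ± 0.31, adjusted p = 0.159). Its knockout controls are near the floor, so the fold depends on it: the difference was 1.04 with intensities under 32 set to 32 and 1.21 on the log2(intensity + 16) scale, neither of them called (adjusted p = 0.156 and 0.0575).

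Cybb (probe set 1422978_at), the superoxide-making subunit, read 202, 504 and 256 in untreated wild-type mice and 1179, 720 and 573 after LPS. The knockout values were 267, 242 and 187 in controls and 921, 959 and 1133 after LPS. LPS arrays lay above controls in both genotypes, narrowly in wild-type because of wild-type control 2, and the genotypes overlapped at each treatment. Cybb rose 2.65-fold in wild-type (1.41 ± 0.35, adjusted p = 0.0362). The knockout rise was 4.36-fold (2.12 ± 0.35, adjusted p = 0.003). Leaving out any 1 of wild-type controls 1 and 3, wild-type LPS 1, 2 and 3 or knockout LPS 1 and 3 ended the wild-type call (adjusted p up to 0.123), as did leaving out the 3 arrays with pancreas transcripts (1.13, adjusted p = 0.125). The knockout call held without each single array (adjusted p up to 0.0158).

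Phagocyte marker lists moved with Cybb from array to array within the groups, with r = 0.695 for neutrophil and 0.693 for monocyte and macrophage markers over the 12 arrays after the group means were taken off. Over the 12 arrays with group means left in, r was -0.02 and -0.51. The monocyte and macrophage list (18 of 19 genes measured) had summed intensities of 27390 to 31330 in wild-type controls and 16410 to 18090 after LPS, and of 23260 to 28680 and 20440 to 24830 in knockout spleen. Its genes did not move alike, so the sum is not a count of cells. In wild-type spleen Cd14 rose (2.61 ± 0.23), while Csf1r, Vcam1, Cd5l, Cd163 and Mrc1 fell (-1.56 to -2.91), each of them passing the test. The neutrophil list (12 of 15 measured) ran from 4390 to 15660 in wild-type controls, with the highest sum in the array with the highest control Cybb, and from 6182 to 8672 after LPS. In knockout spleen it ran from 4757 to 13120 in controls and from 4105 to 6749 after LPS. The part of these cells in the Cybb rise was not tested. The genes most like Cybb over the 12 arrays were Trem1, a receptor of neutrophils and monocytes, and the interferon-induced Oas2 and Tdrd7 (r = 0.974, 0.963 and 0.950).

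Acod1 and Sod2 were each other's most similar gene (r = 0.995), followed for both by Cxcl11 (0.991 and 0.993) and Upp1 (0.989 and 0.993). Slc7a2 was most like Tnfrsf12a, Selp and Adamts4 (0.954, 0.952 and 0.938), Gch1 like Gypc, Ppp1r15a and Slc11a2 (0.962, 0.944 and 0.932) and Arg2 like Tasor2, Zfp281 and Hdc (0.891, 0.883 and 0.872). Nos2, near the floor, was most like the secreted-protein genes Apcs and Serpinf2 and Plxna2 (0.941, 0.932 and 0.932). These are descriptions over 12 arrays that fall into LPS and control sets, so a shared LPS response alone makes r high. Nos2 had r = 0.687 with the mean of the liver list, and 0.588 after the group means were taken off. Its highest values, 28 in knockout control 2 and 33 in knockout LPS 2, were in the arrays highest in that list. The part of liver transcripts in the Nos2 values was not tested.

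**Figure D3:**
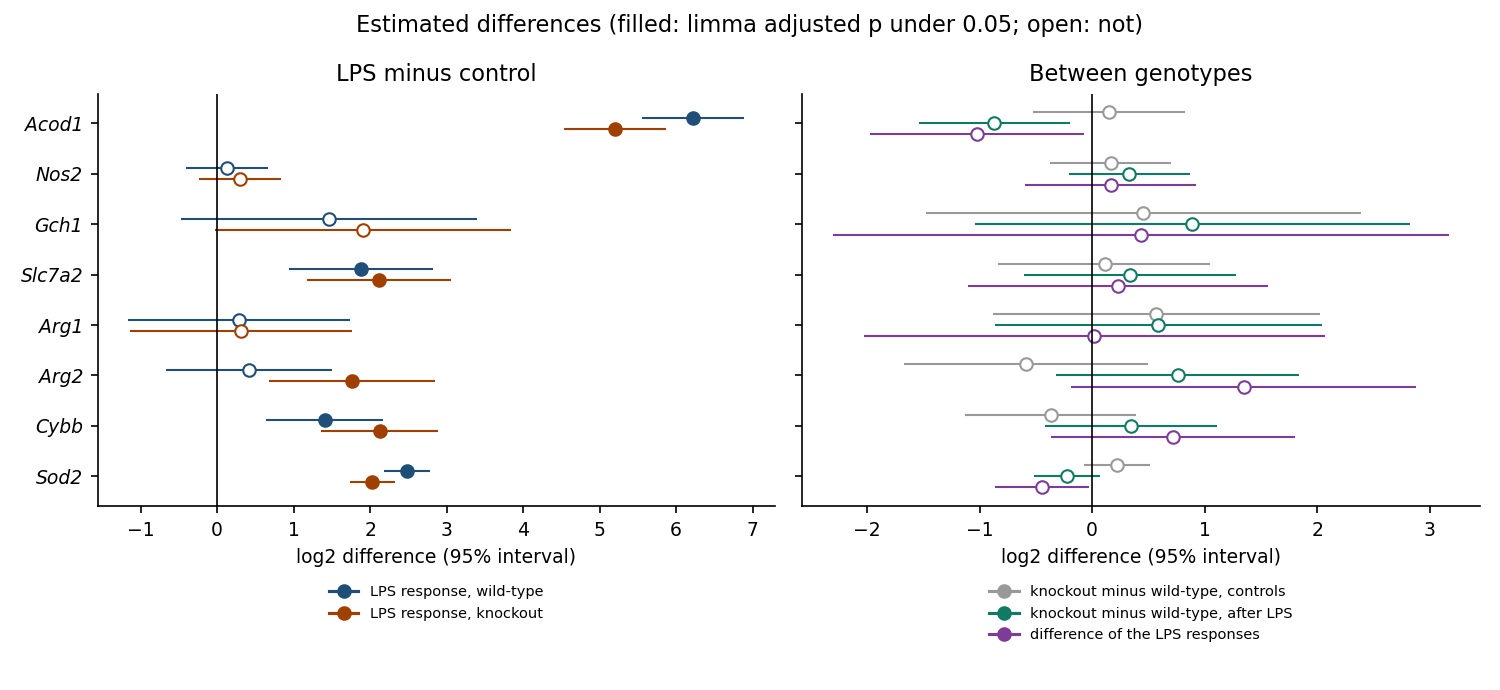
Log2 differences of the 8 genes with 95% intervals from limma, at left LPS minus control in each genotype, at right knockout minus wild-type in controls and after LPS and the difference of the LPS responses. Filled points passed (4 in wild-type and 5 in knockout LPS responses), and no point at right is filled.

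Between genotypes no member passed, in controls, after LPS or in the difference of the responses. By limma 0 of 8 were called in controls, where 0% of all genes were, and 0 had an unadjusted p under 0.05 (1.49% of probe sets had). After LPS 0 of 8 were called, against 0.363% of all genes (0.318% of probe sets), and 1 had an unadjusted p under 0.05 (8.84% of probe sets). In the difference of the responses 0 of 8 were called, against 0% of all genes, and 2 had an unadjusted p under 0.05 (5.44% of probe sets). The widths of the intervals set what could be seen: for Sod2 the genotype difference after LPS lay between -0.52 and 0.07, for Gch1 between -1.04 and 2.82.

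Acod1 had the smallest p of the 8 between genotypes after LPS. Its 3 knockout LPS arrays (766 to 1294) lay below its 3 wild-type LPS arrays (1383 to 2544). The difference was -0.87 ± 0.30 (95% interval -1.54 to -0.20), with a limma p of 0.0158 before adjustment and 0.376 after it. Its LPS response differed by -1.02 ± 0.43 (adjusted p = 0.899). Sod2 likewise had its knockout LPS arrays below its wild-type ones (-0.23 ± 0.13, adjusted p = 0.748, and -0.45 ± 0.19 for the response, adjusted p = 0.899), in each of its 3 probe sets. Gch1 lay the other way, 755 to 1273 in knockout against 379 to 646 in wild-type LPS arrays (0.89 ± 0.88, adjusted p = 0.918). Lung transcripts, higher in several knockout arrays, were read as a list (8 of 9 genes measured). With group means taken off, r with its mean was 0.591 for Acod1 and -0.727 for Gch1. In fits with that mean as a covariate no member passed between genotypes. In all 3 of 8 members had LPS arrays that did not overlap between genotypes, 1 higher and 2 lower in knockout, where 18.3% of all genes did (8.73% higher and 9.6% lower). In controls only Sod2 did, higher in knockout (585 to 722 against 543 to 555, 0.22 ± 0.13, adjusted p = 1), as did 2.49% of all genes (1.53% higher). The other Sod2 probe sets overlapped between the controls of the genotypes.

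The remaining values after LPS did not separate the genotypes. The difference was 0.76 ± 0.49 for Arg2 (27 to 66 in wild-type, 48 to 86 in knockout, adjusted p = 0.787), 0.59 ± 0.66 for Arg1 (adjusted p = 0.941), 0.35 ± 0.35 for Cybb (adjusted p = 0.921), 0.34 ± 0.43 for Slc7a2 (adjusted p = 0.955) and 0.33 ± 0.24 for Nos2 (adjusted p = 0.839). Among 30 alternative settings, array quality weights alone called 1 member, Arg2, at 1.20 ± 0.33 (adjusted p = 0.0467). Its adjusted p over the others ran up to 1.

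Other genes of the same pathways were taken from 6 lists. In the citric acid cycle list, which surrounds the step that feeds Acod1, 0 of 21 measured genes rose, 2 fell in wild-type and 7 fell in knockout spleen (4.16% and 9.71% of all genes fell). Median differences were -0.17 and -0.49, beside -0.03 and -0.06 for all genes. Idh1, the cytosolic isocitrate dehydrogenase, read 470, 281 and 271 in untreated wild-type mice and 95, 52 and 56 after LPS. It read 286, 344 and 431 in knockout controls and 51, 76 and 61 after LPS. All 6 LPS arrays lay below all 6 controls, with falls of -2.34 ± 0.30 (adjusted p = 0.00138) and -2.50 ± 0.30 (adjusted p = 0.000533) that held under all 29 alternatives. Idh2, its mitochondrial counterpart, fell in knockout (-1.65 ± 0.33, adjusted p = 0.00909, held under all 29) and in wild-type spleen (-1.31 ± 0.33, adjusted p = 0.0418), a call that ended without any 1 of the 6 wild-type arrays, knockout control 3 or knockout LPS 1 and 3 (adjusted p up to 0.125) and without the 2 arrays of male pattern (-1.03 against 1 remaining control, adjusted p = 0.345). Fh1, fumarase, fell in knockout spleen (-1.90 ± 0.29, adjusted p = 0.00227), and its wild-type difference was -0.99 ± 0.29 (adjusted p = 0.0737). The knockout fall of Mdh1 was fragile (-1.25 ± 0.37, adjusted p = 0.0487). Its call was lost in 20 of 29 alternatives, among them 10 of the 12 fits without a single array. In wild-type spleen Mdh1 differed by -1.06 ± 0.37 (adjusted p = 0.128).

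**Figure D4:**
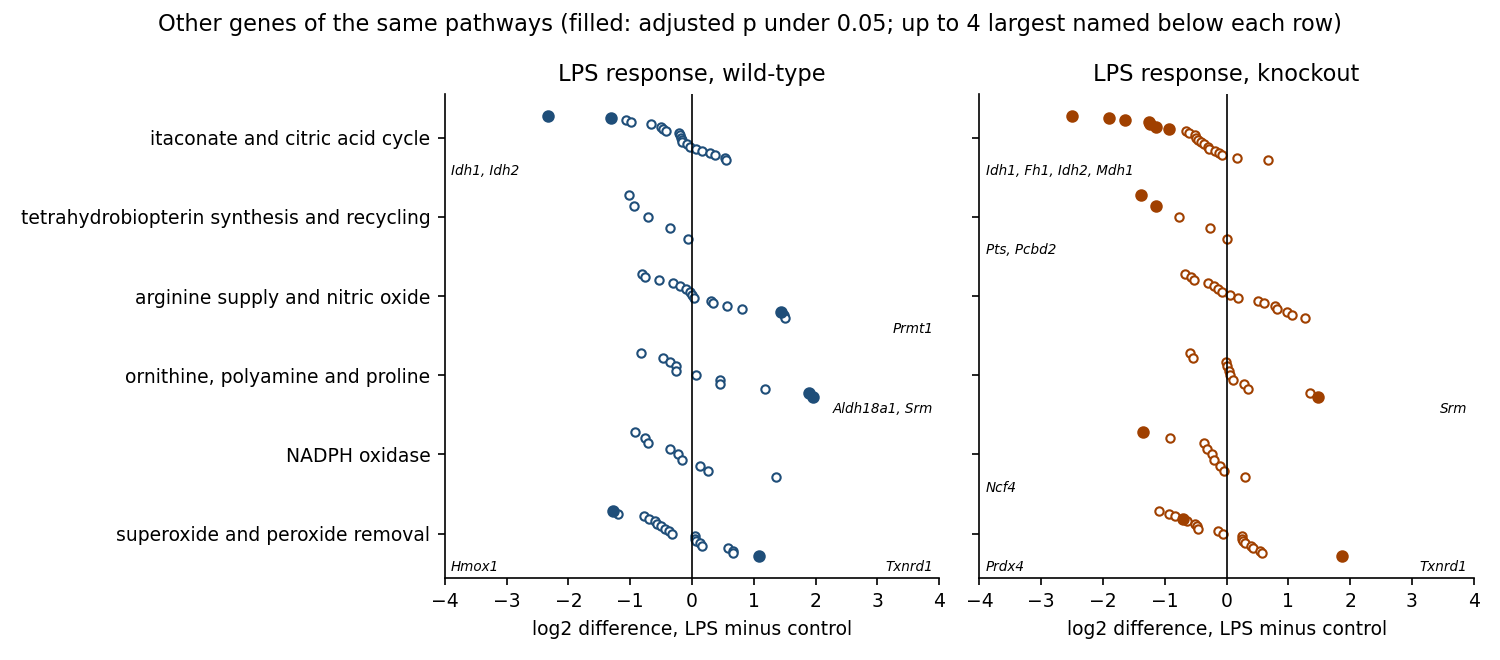
Log2 differences, LPS minus control, of all measured genes of the 6 pathway lists in wild-type (left) and knockout spleen (right), 1 point per gene, filled where it passed. Idh1 lies furthest left in both panels, and Txnrd1 and Srm are at the right in both.

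Of the other 5 tetrahydrobiopterin genes measured, 0 passed in wild-type (8.09% of all genes did) and 2 fell in knockout spleen (9.71%), Pts and Pcbd2. Both calls were fragile: Pts (-1.39 ± 0.41, adjusted p = 0.0485) lost it in 23 of 29 alternatives, among them without any 1 array other than wild-type LPS 1 and 2 (adjusted p up to 0.148). Pcbd2 (-1.14 ± 0.31, adjusted p = 0.0357) lost it in 17, among them without wild-type LPS 2 or 3, knockout control 1 or 3 or knockout LPS 1 or 3 (up to 0.146). In the arginine supply and nitric oxide list, 1 of 16 genes rose in wild-type, the arginine methyltransferase gene Prmt1 (1.43 ± 0.36, adjusted p = 0.0375, lost in 14 of 29 alternatives, among them leaving out any knockout LPS array, wild-type LPS 2 or 3 or wild-type control 1 or 2, at up to 0.167), and 0 in knockout spleen. Nos3, the endothelial synthase, had differences of 0.30 ± 0.30 and 0.78 ± 0.30 (adjusted p = 0.705 and 0.130). Cps1 and Otc of this list are also in the liver list. Beside the list's counts, 3.93% of all genes rose in wild-type and 5.54% in knockout spleen.

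Downstream of arginase, the spermidine synthase gene Srm read 376, 435 and 574 in untreated wild-type mice and 904, 2783 and 2151 after LPS. It read 548, 467 and 569 in knockout controls and 1859, 1648 and 1018 after LPS. The rises were 1.95 ± 0.38 and 1.47 ± 0.38 (adjusted p = 0.013 and 0.0286). Leaving out wild-type LPS 2 or 3, or control 1, ended the wild-type call (adjusted p up to 0.0707), and without any 1 of the 3 knockout controls or knockout LPS 1 and 2 the knockout call (up to 0.117). Of the 11 genes measured in the ornithine, polyamine and proline list, 2 rose in wild-type (3.93% of all genes did) and 1 in knockout spleen (5.54%), and 0 fell (4.16% and 9.71%). The other was Aldh18a1, of proline and ornithine synthesis, which rose in wild-type spleen (1.90 ± 0.37, adjusted p = 0.013, a call that ended without the same arrays as for Srm, at up to 0.0601) beside 0.29 ± 0.37 in knockout (adjusted p = 0.715).

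Of 9 measured partners of Cybb in the NADPH oxidase list, 0 passed in wild-type and 1, Ncf4, fell in knockout spleen (-1.36 ± 0.33, adjusted p = 0.0228, lost without knockout control 2 or 3 or knockout LPS 1 or 3 at up to 0.0931). Of all genes 8.09% passed in wild-type and 9.71% fell in knockout spleen. Cyba, the subunit that pairs with Cybb in the membrane, differed by 0.26 ± 0.26 and -0.36 ± 0.26 (adjusted p = 0.705 and 0.463). Ncf1, a cytosolic organizer of the enzyme named here after its values were seen, read 1261, 1625 and 1286 in wild-type LPS arrays and 315, 316 and 230 in knockout LPS arrays. Its wild-type controls spread from 222 to 1168 and its knockout controls from 370 to 815. Its wild-type LPS arrays lay above its wild-type controls (1.36 ± 0.50, adjusted p = 0.153), and its knockout LPS arrays below its knockout controls (-0.91 ± 0.50, adjusted p = 0.297). The genotypes did not overlap after LPS, but the difference of -2.28 ± 0.50 did not pass (adjusted p = 0.106).

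Of 19 genes measured beside Sod2 in the superoxide and peroxide removal list, 1 rose and 1 fell in each genotype. Of all genes 3.93% rose and 4.16% fell in wild-type, and 5.54% rose and 9.71% fell in knockout spleen. A count of 1 is near those shares. The list also holds genes of other functions, such as Hmox1. The thioredoxin reductase gene Txnrd1 rose in both, from 429, 573 and 596 to 982, 1035 and 1356 in wild-type mice and from 577, 389 and 494 to 1737, 1772 and 1761 in knockout mice. The rises were 1.08 ± 0.20 (adjusted p = 0.0102, lost without wild-type LPS 3 at 0.0563) and 1.87 ± 0.20 (adjusted p = 0.000304). Hmox1, which degrades heme, fell in wild-type spleen (-1.29 ± 0.30, adjusted p = 0.0274, lost without any 1 of the 3 wild-type controls or wild-type LPS 1 and 2 at up to 0.110), beside -0.14 ± 0.30 in knockout (adjusted p = 0.843). Prdx4, a peroxiredoxin of the secretory pathway, fell in knockout spleen (-0.71 ± 0.18, adjusted p = 0.024, lost without knockout control 3 or knockout LPS 1 at up to 0.109). Sod1, the cytosolic superoxide dismutase, differed by -0.57 ± 0.23 and -0.51 ± 0.23 (adjusted p = 0.198 and 0.193). No gene of the 6 lists passed between genotypes or in the difference of the responses. Of all genes 0% passed in controls, 0.363% after LPS and 0% in that difference.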

How the data were processed

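Total spleen RNA of 12 mice was measured on 1-colour Affymetrix arrays. RMA, run by the authors in R with affy per the series' design text, gave 1 deposited intensity for each probe set, a whole number and not a log. Versions are not given in the sources used here. Array medians ran from 47 to 63. The number of arrays and the signal over the floor limit the precision.

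Intensities were log2-transformed. Of 22690 probe sets, 64 controls were left out. The platform table gave 1 gene for 20380 probe sets, several for 691 and none for 1555. A gene's probe set was that with the highest mean over the arrays (sets ending in _x_at only where there was no other). A model of 4 group means was fitted with limma 3.58.1 in R 4.3.3 (lmFit, eBayes, 8 residual and 2.722 prior degrees of freedom) after a check on simulated data. The 5 contrasts were tested two-sided with Benjamini-Hochberg adjustment over 22626 probe sets and a threshold of 0.05. Named genes were the 8 members, up to 4 called genes per pathway list and contrast, and the 3 genes most like each member. Members and lists were chosen with earlier results of these data known. Alternatives covered scaling, floor, filter, variance model, left-out arrays, marker covariates and the replicate number as a block.

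Replicate numbers in the labels are shared by all groups, but nothing says they pair mice. Deviations of same-numbered arrays correlated from -0.282 to 0.629 over 12 pairs. They were over 0.1 for every pair (0.136 to 0.277) only between the controls of the 2 genotypes. All values reported come from a fit that took every comparison as unpaired. The replicate number entered as a block in 1 alternative only.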

Additional observations from a re-analysis of the deposited data

How the results depend on the processing

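Over the alternatives no called member value reversed. Of 1152 member values, 1109 kept their side of the threshold, 36 lost a call and 7 gained one, and 60 uncalled values changed sign. Acod1 and Sod2 in both genotypes and Cybb in knockout spleen kept their calls in all alternatives run. The count of members called in wild-type spleen, 4 as reported, was 2 with intensities under 32 set to 32 and 2 without the 3 arrays high in pancreas markers, and 2 to 4 when single arrays were left out. In knockout spleen, 5 as reported, it was 3 with that floor and 3 without probe sets under the median level, in both cases because Slc7a2 and Arg2 were at the floor or left out, and 4 to 5 without single arrays. After LPS between genotypes it was 1, not 0, with array quality weights (the cause was not tested).

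With the replicate block the wild-type Cybb rise (1.41, adjusted p = 0.0576) and the knockout Arg2 rise (1.77, adjusted p = 0.0632) were no longer called. In the comparison of controls between genotypes the block changed no call among members, 0 in both fits. Probe sets called in all numbered 1491 in wild-type (565 without wild-type LPS 3 to 2912 with quality weights), 2869 in knockout (1485 without knockout LPS 1 to 3945 with quality weights) and 72 between genotypes after LPS (0 with only those arrays fitted to 2063 with quality weights). They rose from 0 to 348 in controls and from 0 to 233 in the difference of responses without the 3 arrays high in pancreas markers, a fit with 1 knockout control left, whose spread is taken from the other groups. Shifting all arrays to 1 median moved the median of all wild-type differences from -0.02 to 0.10 and the share of calls that were higher from 51.4% to 62.8%. In knockout spleen these went from -0.05 to 0.17 and from 40.4% to 60.7%.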
